A study of Mus musculus with 4 samples.

Results

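The CCN family was described by cell type and by age in bone marrow of the mouse. Its members were the 5 genes Cyr61, Ctgf, Nov, Wisp1 and Wisp2, chosen by name and found in every table, among 26600 genes that all 4 tables share. Newer annotations call them Ccn1 to Ccn5 in that order. Wisp3, a further gene of the family, was not among them and held 213, 908, 705 and 331 UMIs (unique molecular identifiers, each counting 1 captured molecule) at 1, 1.5, 3 and 16 months. Cells were freed with proteases from metaphyseal bone fragments of long bones and sorted for Td, at an obvious Td peak or otherwise at the brightest end, from male Col2:Td mice of the B6SJL/F1 strain, in which Col2-driven Cre recombination leaves Td in the cells that expressed it and in their progeny. Single-cell RNA was then sequenced from 2 pooled mice aged 1 month and from 3 pooled mice each aged 1.5, 3 and 16 months. No mouse received a treatment named in the labels. With 1 library per age there was no replicate and no test was possible, so every interval covers counting error only.

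CCN proteins are secreted, cysteine-rich matricellular proteins, which act on cells through integrins, heparan sulphate proteoglycans and LRP receptors and which bind growth factors. Cyr61 and Ctgf are classical targets of the YAP and TEAD regulators and of serum and mechanical stimuli, and Ctgf is needed for growth plate cartilage. Nov restrains osteoblast differentiation in several models, Wisp1 is a Wnt-induced gene of osteogenic cells, and Wisp2, which lacks the C-terminal domain of the other members, is known from mesenchymal cells of adipose tissue and bone.

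The genes lie apart in the genome. In GRCm38, the build of the deposited counts, GENCODE M21 places Cyr61 on the minus strand of chromosome 3 at 145646976 to 145649981, and Ctgf on the plus strand of chromosome 10 at 24595442 to 24598683. Nov and Wisp1 are both on the plus strand of chromosome 15, at 54745702 to 54754039 and at 66891320 to 66923201, and Wisp2 is on the plus strand of chromosome 2 at 163820861 to 163833146. The 250 bases before the Cyr61 start are shown because Cyr61 was the member with the most UMIs in every library, and because its known regulators can be read against them. RefSeq gives this sequence for GRCm38.p6, chr3:145649986-145650235, minus strand, with matches to the TEAD motif GGAATG and the cyclic AMP response element TGACGT, both sought on both strands, in capitals.
Cyr61: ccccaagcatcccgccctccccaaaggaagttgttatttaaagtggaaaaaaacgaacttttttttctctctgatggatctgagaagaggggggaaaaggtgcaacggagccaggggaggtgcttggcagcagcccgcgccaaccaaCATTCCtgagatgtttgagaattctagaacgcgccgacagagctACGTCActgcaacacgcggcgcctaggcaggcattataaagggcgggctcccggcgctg
The TEAD letters were found in 12.6% and the cyclic AMP element in 6.47% of 32851 promoter windows of the same length, and the motifs do not overlap here. A match describes letters and is not evidence of a bound site.

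Cells were grouped into classes by clustering without the 5 members, and a cluster is called X-like where at least 3 markers of type X were raised and its leading genes held no more markers of another type. EMP-like and LMP-like cells are early and late mesenchymal progenitors, LCP-like cells lineage committed progenitors, OB-like and Ocy-like cells osteoblasts and osteocytes, AD-like cells the Adipoq and Lepr adipocyte lineage, and CH-like cells chondrocytes. Tendon-like cells reached 20 cells at 3 months only, trabecular osteogenic-like cells were not found at 3 months and LCP-like cells were not found at 16 months. The LCP-like cluster at 3 months also had all 3 trabecular osteogenic markers raised. Levels are CPM, a gene's UMIs divided by all UMIs that a library has in a class, on the usual CPM scale. The libraries held 8417, 5745, 4516 and 9229 barcodes at 1, 1.5, 3 and 16 months. After filtering, 8308, 5453, 4180 and 6143 cells remained, with medians of 6264 to 10279.5 UMIs. The 16 month library stood apart in ways other than age. It lost the largest share of its barcodes to the filter. It listed 31054 genes where the others listed 27999, and it shared 1 or 2 cell barcodes with each other library, whereas those shared 30 to 61 with one another. Age and library preparation or reference therefore cannot be told apart. Free RNA was read from neutrophil-like cells. At 1.5 months that class held 38 cells with mesenchymal RNA, so its level there is a poor measure of free RNA.

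**Figure D1:**
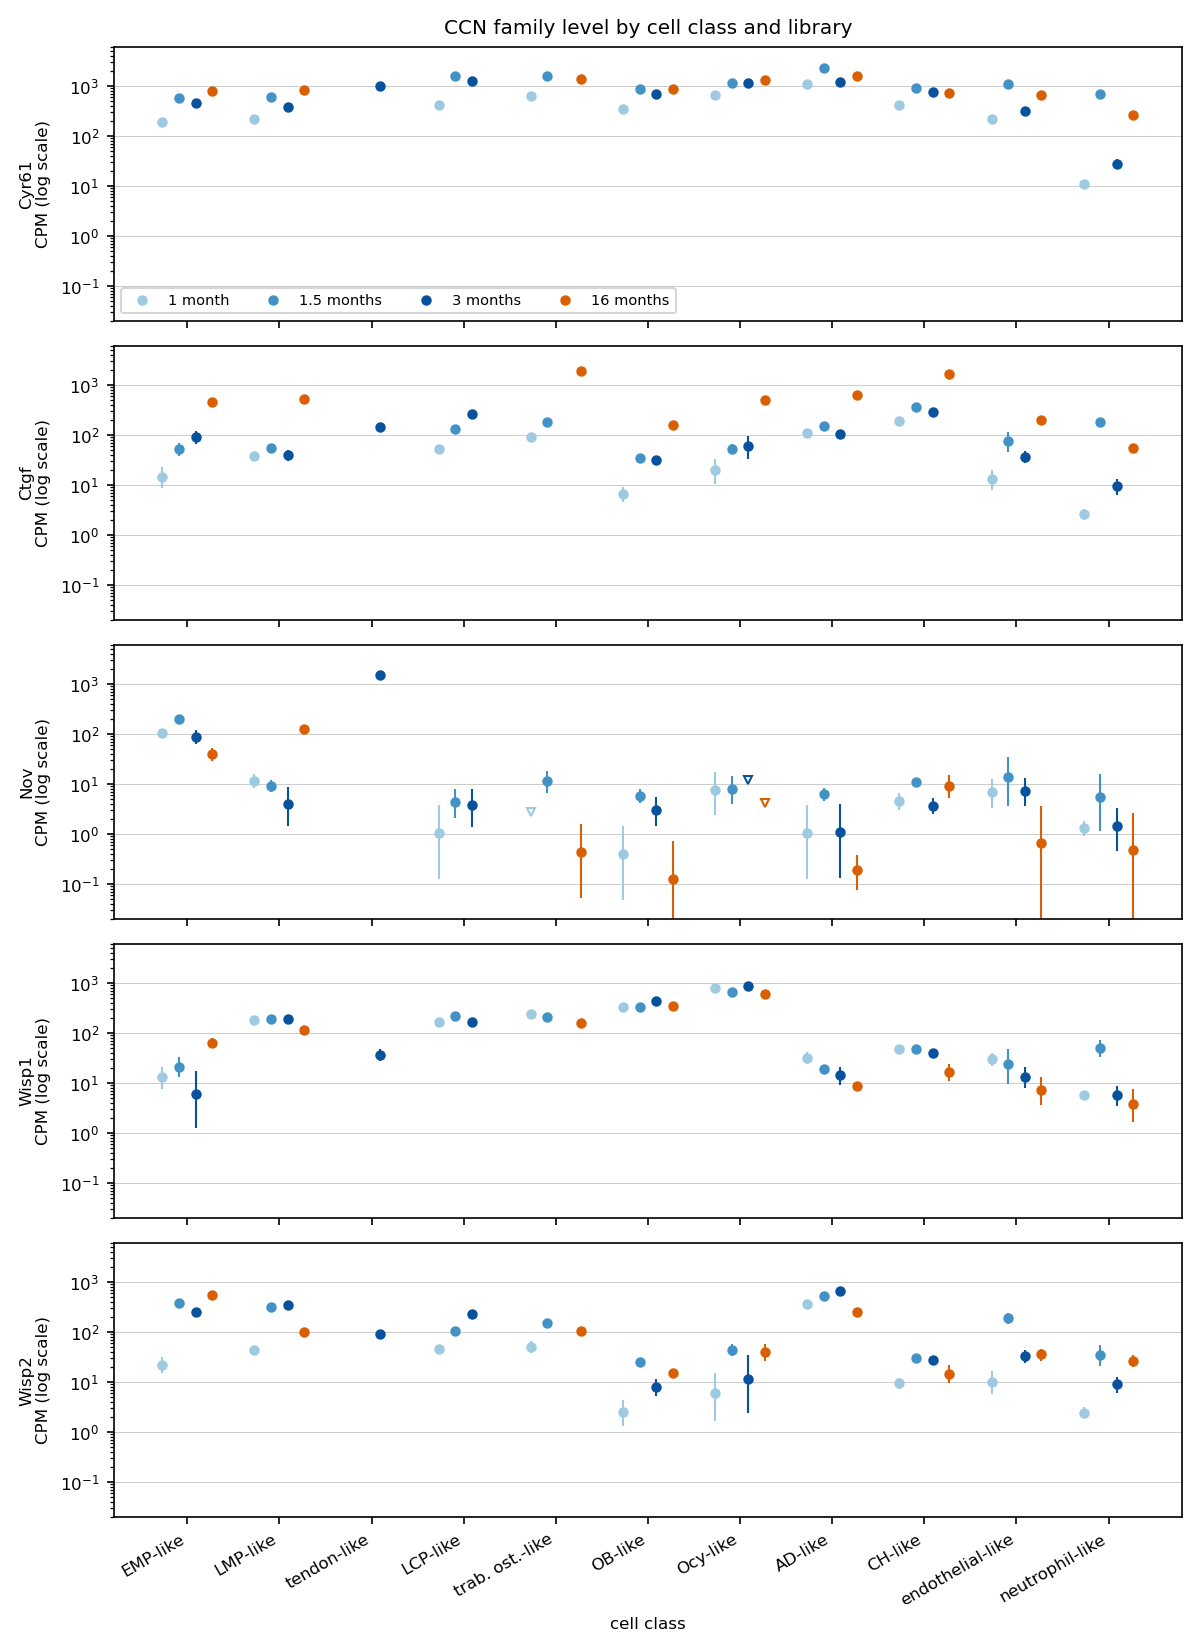
CPM of each member (log scale) by cell class, coloured by library, with 95% Poisson intervals. Open triangles give the level of 3 UMIs where none was found, and bars that reach the lower edge continue below it. Cyr61 was high in all mesenchymal classes, Wisp1 peaked in Ocy-like cells and Nov in tendon-like cells at 3 months.

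Cyr61, an inducible adhesion protein that binds integrins, was the most abundant member and was found in every mesenchymal class. In AD-like cells its level was 1098, 2280, 1218 and 1583 CPM at 1, 1.5, 3 and 16 months, with 95% intervals of 1051 to 1146, 2245 to 2314, 1168 to 1270 and 1570 to 1596. It was lowest in EMP-like cells at 1 month (186 CPM). The AD-like class was the highest of all named classes at 1, 1.5 and 16 months. At 3 months LCP-like cells were at 1267 CPM and AD-like cells at 1218, a 1.04-fold gap whose intervals overlap (1213 to 1324 and 1168 to 1270). Ocy-like cells were next to AD-like cells at 1 month, with 657 CPM, and reached 1320 CPM at 16 months. In each of the 8 mesenchymal classes named at both ages the 1.5 month value exceeded the 1 month value, and in LCP-like cells it was 1610 against 423 CPM. After each cell was thinned to 3000 UMIs, 80.0%, 93.9%, 77.6% and 80.7% of AD-like cells held a Cyr61 UMI, from the youngest library to the oldest. The share in neutrophil-like cells was 2.83%, 44.7%, 5.40% and 17.1%, so the AD-like shares stood above it each time. Without thinning, the AD-like shares were 88.6%, 97.3%, 83.5% and 90.9%.

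Cyr61 is an immediate early gene, a group known to respond to tissue dissociation, so its level was set beside that of 15 immediate early and handling stress genes. Their summed level in AD-like cells was 18311, 24103, 24377 and 30152 CPM in the order of age, the highest of the 6 classes found in all libraries each time. In AD-like cells above the class median of immediate early UMIs, Cyr61 averaged 5.20 UMIs per thinned cell at 1 month, against 1.91 in the rest. The corresponding means were 9.29 against 4.61 at 1.5 months, 4.79 against 2.48 at 3 months and 6.15 against 3.03 at 16 months. Cyr61 was thus higher in the cells with more immediate early UMIs in each of the 4 libraries. Within CH-like cells the means were close at 1 month (1.16 and 1.11) and at 16 months (2.02 and 1.96). They were further apart at 1.5 months (3.54 and 2.04) and at 3 months (2.75 and 1.96). The part of handling in the Cyr61 level was not tested.

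Over all mesenchymal classes and libraries with enough cells, the Cyr61 mean was higher in the cells above the median in 29 of 29. The Ctgf mean was higher there in 15 of 29, that of Wisp2 in 16, of Nov in 11 and of Wisp1 in 6. No share over all genes is given beside these counts. In AD-like cells Ctgf averaged 0.353 UMIs per thinned cell above and 0.333 not above the median at 1 month, and 1.99 and 1.84 at 16 months. In CH-like cells at 1 month the mean was lower above the median, at 0.534 against 0.714. It was higher in LCP-like cells at 1 month (0.215 against 0.081) and in OB-like cells at 16 months (0.605 against 0.341). Over 52 points of class and library with at least 50 cells, all cell lineages included, the Pearson r of log2(CPM + 5) with the summed immediate early genes was 0.85 for Cyr61, 0.79 for Ctgf, 0.76 for Wisp2, 0.39 for Wisp1 and 0.36 for Nov. Points of a library share its depth and its handling, and blood cells are low in most of these genes, so the values are a description.

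**Figure D2:**
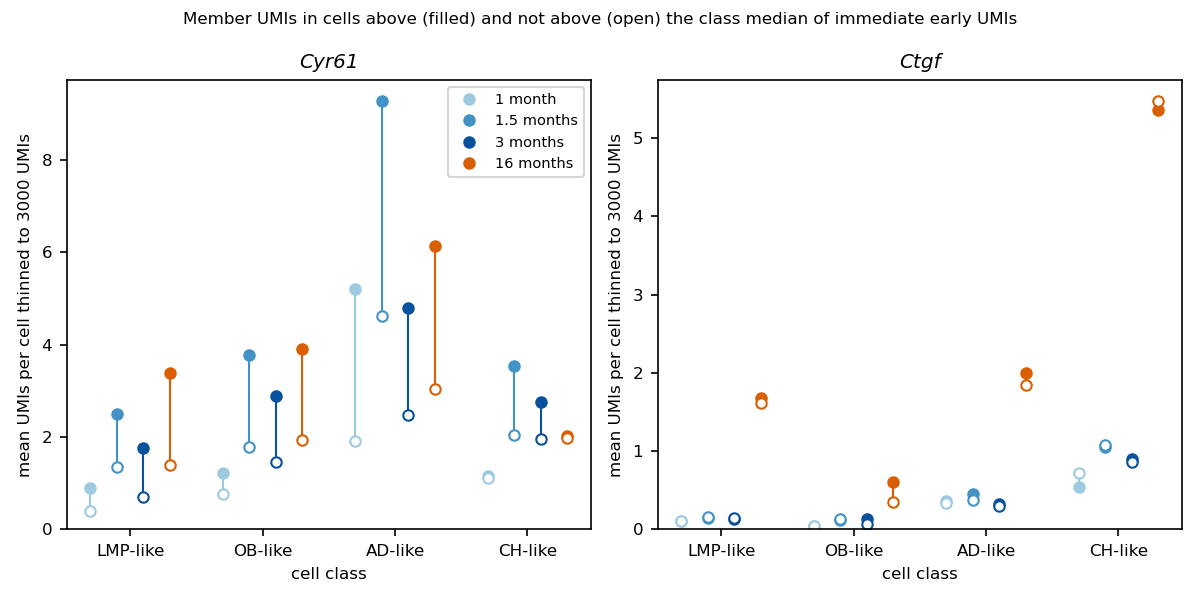
Mean UMIs of Cyr61 and Ctgf per cell, thinned to 3000 UMIs, in cells above (filled) and not above (open) the class median of immediate early UMIs, by class and coloured by library. For Cyr61 the filled points of AD-like cells lie between 4.79 and 9.29 and the open ones between 1.91 and 4.61, whereas those of Ctgf lie close together, at 1.99 and 1.84 at 16 months.

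Ctgf, a growth factor binding protein of cartilage and fibrous tissue, was highest in the chondrocyte class in the libraries at 1, 1.5 and 3 months. CH-like cells held 188 CPM at 1 month (178 to 199), 355 at 1.5 months (348 to 362), 288 at 3 months (276 to 301) and 1693 at 16 months (1630 to 1758). They ranked first of the classes found in all libraries each time. Among all named classes, trabecular osteogenic-like cells, which express Cdh15 and Spp1, stood higher at 16 months, at 1864 CPM (1825 to 1904). LCP-like cells were close to CH-like cells at 3 months, at 265 CPM (241 to 292). OB-like cells were the lowest of the 6 shared classes at 1, 1.5, 3 and 16 months, at 6.63, 33.9, 32.0 and 158 CPM.

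Among the chondrocyte clusters, Ctgf was low in cycling cells and its order in the others varied between libraries. At 1.5 months the cluster led by Cytl1 and Sfrp5 held 481 CPM and the hypertrophic cluster led by Col10a1 and Ihh 415. The cycling cluster led by Hist1h2ap was the lowest, at 222 CPM. At 1 month the cluster led by Cytl1 and Sfrp5 was at 143 CPM and the hypertrophic cluster at 197. At 3 months the cluster led by Ucma, a resting zone gene, and the hypertrophic cluster were at 355 and 351 CPM, and the cycling cluster at 109. At 16 months the cluster led by Serpina1c, Col10a1 and Ihh held 2481 CPM in 62 cells and that led by Cytl1 1195 CPM in 55 cells. The cycling cluster was below both others named here in each of the libraries at 1, 1.5 and 3 months, with 105 CPM in 28 cells at 1 month. Cyr61 differed less between these clusters, from 597 to 877 CPM at 3 months.

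Nov was high in few clusters. Among named classes it was highest in tendon-like cells at 3 months, with 1520 CPM (1455 to 1587) in 242 cells led by Sfrp2, Nov, Mfap4 and Nppc. A UMI was found in 68.4% of these cells after thinning and in 71.1% without it, against 0.704% and 1.04% of neutrophil-like cells. Their LMP markers were raised too, Aspn, Edil3, Tnn and Dkk3, beside the tendon markers Tnmd, Scx, Mkx, Fmod and Thbs4. At 1 and 1.5 months a cluster led by Mfap4, Nppc, Nov and Sfrp2 stayed unnamed, since the LMP markers Aspn, Edil3 and Dkk3 were raised in it but the tendon marker Tnmd was among its 10 leading genes. It held 174 CPM (156 to 194) in 219 cells and 1324 CPM (1273 to 1377) in 222 cells. A smaller unnamed cluster, led by Npy, Clu, Cilp2 and Tnmd, held 138 CPM in 123 cells and 242 CPM in 120 cells. EMP-like cells, which express Clec3b and Dpt, were below both unnamed clusters but the highest named class there, at 104 and 199 CPM, and stood at 87.7 CPM at 3 months and 39.0 at 16 months. AD-like cells held 1.05, 6.19, 1.09 and 0.188 CPM in the 4 libraries, and no Nov UMI was found in Ocy-like cells at 3 or 16 months, where 3 UMIs would be 11.7 and 4.20 CPM.

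No tendon-like class was named at 16 months. Nov then stood highest in LMP-like cells, the late progenitors, at 128 CPM (114 to 143) against 3.97 at 3 months (1.46 to 8.65). These 245 cells held 313 of the 564 Nov UMIs of that library. The UMIs were unevenly spread, since the 10% of thinned cells with the most held 94.3% of them, against 37.9% in tendon-like cells at 3 months, and 12.3% of thinned LMP-like cells had a UMI. The tendon markers Tnmd, Scx, Mkx, Fmod and Thbs4 were raised in this cluster as well, beside all the LMP markers, so its Nov level cannot be set apart from that of tendon-like cells. Without thinning the share was 16.7%, and no UMI was found in 234 thinned neutrophil-like cells, which at 3 counts allows a share of up to 1.28%.

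Wisp1 was highest in the osteocyte class and next in the osteoblast class in every library. Ocy-like cells, marked by Dmp1 and Phex, held 807 CPM at 1 month (741 to 879), 668 at 1.5 months (626 to 712), 853 at 3 months (744 to 974) and 602 at 16 months (546 to 662). OB-like cells came next, with 327, 326, 430 and 348 CPM. LMP-like cells were at 186, 188, 193 and 117 CPM, and AD-like cells at 32.0, 19.2, 14.2 and 8.78 CPM. Among these 4 classes the order Ocy-like, OB-like, LMP-like and AD-like held in all 4 libraries, with counting intervals that did not overlap between neighbours. After thinning, 92.7% of Ocy-like cells at 1 month and 74.4% at 16 months had a Wisp1 UMI, against 1.80% and 1.28% of neutrophil-like cells. Without thinning the Ocy-like shares were 100% and 73.1%. The Ocy-like classes were small, with 41, 98, 33 and 52 cells. At 16 months the OB-like class included a cluster of 348 cells with a median of 955.5 UMIs, and without it the level was 385 CPM.

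Wisp2 was highest in the adipocyte lineage class at 1, 1.5 and 3 months but not at 16 months. AD-like cells held 371 CPM at 1 month (344 to 400), 537 at 1.5 months (521 to 554), 657 at 3 months (621 to 696) and 255 at 16 months (250 to 260). At 1 month the next class, trabecular osteogenic-like cells, was 7.37-fold lower. EMP-like cells stood at 22.4, 376, 251 and 543 CPM, and exceeded AD-like cells at 16 months. OB-like cells were low throughout, at 2.54, 25.5, 7.99 and 15.4 CPM. In the 16 month AD-like clusters Wisp2 reached 383 CPM in the cluster of 857 cells led by Gm12216 and was 39.9 CPM in the 66 cells led by Kit, Mrap, Fabp4 and Scd1, genes of lipid-storing cells among them. Ctgf was also lowest in those 66 cells, at 126 CPM against 489 to 799 in the other 16 month AD-like clusters.

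Over the 6 classes found in all libraries, 33.8% of 5667 genes at or above 20 CPM had the same highest class in all 4. Of the members, Cyr61 (AD-like), Ctgf (CH-like) and Wisp1 (Ocy-like) had one, and Nov and Wisp2 did not. For Cyr61 this rests on a narrow gap at 3 months, 1.05-fold, at 1218 CPM in AD-like and 1158 CPM in Ocy-like cells. The highest named class exceeded the next at least 2-fold in 13.5%, 15.2%, 15.2% and 13% of genes at 1, 1.5, 3 and 16 months. Of the members, Nov did so in all 4 libraries, Wisp1 at 1 and 1.5 months, and Wisp2 at 1 and 16 months. For Nov that class changed, from EMP-like at 1 and 1.5 months to tendon-like at 3 and LMP-like at 16 months. Unnamed clusters held more Nov than EMP-like cells at 1 and 1.5 months.

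**Figure D3:**
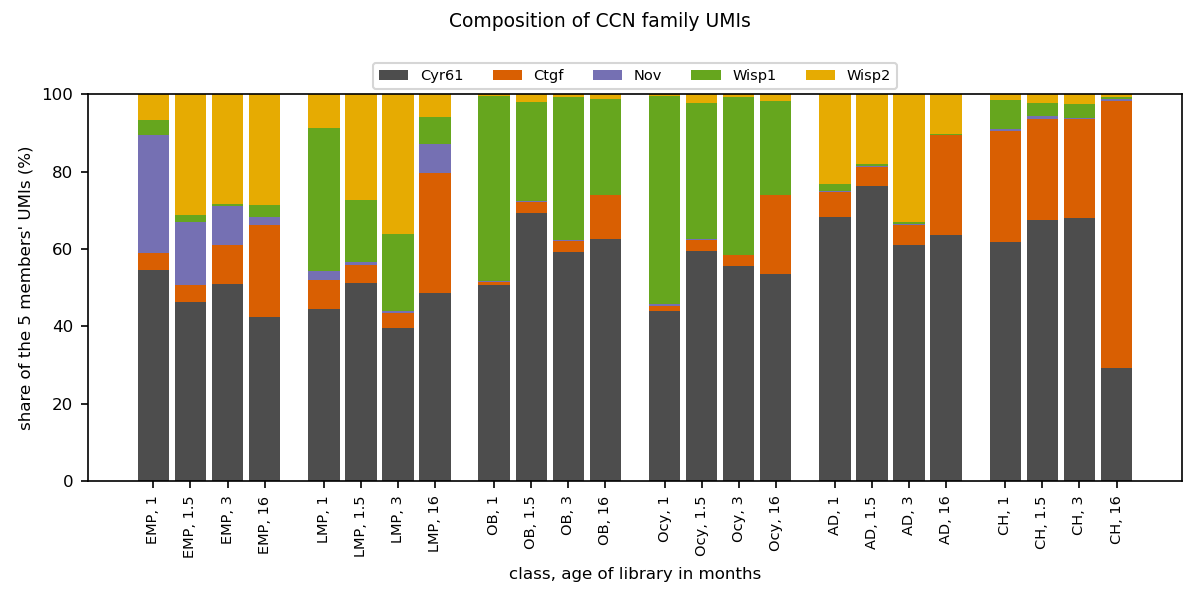
Share of each member in the UMIs of the 5 members (percent), for the 6 classes found in all libraries, by age in months. Wisp1 took its largest shares in OB-like and Ocy-like cells, and Ctgf took 69.2% in CH-like cells at 16 months.

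The members made up different mixtures in each class. Cyr61 accounted for 61% to 76.2% of family UMIs in AD-like cells, with Wisp2 second at 1, 1.5 and 3 months (23.1%, 18% and 32.9%) and Ctgf second at 16 months (25.7%). In Ocy-like cells Wisp1 took 53.9%, 35.0%, 41.0% and 24.4%. In CH-like cells Ctgf took 28.6%, 26.0%, 25.5% and 69.2%. In tendon-like cells at 3 months Nov took 54.5%. Among mesenchymal classes the family total ranged from 341 CPM in EMP-like cells at 1 month to 3527 CPM in trabecular osteogenic-like cells at 16 months. UMIs count molecules, so these shares were not divided by gene length.

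Over mesenchymal classes and libraries with enough cells, the share with Ctgf was higher among cells with Cyr61 than without it in 21 of 27 and lower in 6, and the counting intervals were apart in 1 of the 27. It was lower in trabecular osteogenic-like cells at 1.5 months, at 33.8% against 60.0% of 25 cells. The intervals were apart in CH-like cells at 1.5 months, where of thinned cells with a Cyr61 UMI 56.2% (53.7 to 58.7) also held a Ctgf UMI, against 47.9% (42.9 to 52.9) of those without. In AD-like cells at 16 months a Wisp2 UMI was found in 45.9% (43.8 to 48.1) of cells with Ctgf and 38.0% (35.5 to 40.6) of those without. In AD-like cells at 1 month the shares with and without Ctgf were 52.6% and 53.7%, with overlapping intervals. At 16 months the AD-like class pooled clusters that differed in both genes, and co-detection within each cluster was not tested.

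The 3 and 16 month libraries were set side by side within classes, since these are the adult and the aged mice of the study. In AD-like cells 2 of the 3 members at or above 20 CPM differed at least 2-fold, where 16.7% of 6076 genes did (11.8% higher and 4.84% lower at 16 months). Ctgf stood at 106 and 639 CPM, a log2 ratio of 2.58 (2.38 to 2.80), and Wisp2 at 657 and 255 CPM, a log2 ratio of -1.37 (-1.45 to -1.28). Cyr61 stood at 1218 and 1583 CPM, a log2 ratio of 0.38. In LMP-like cells 4 of 5 members differed at least 2-fold, where 32.2% of 5924 genes did (23.2% higher and 9% lower). Ctgf there stood at 39.1 and 525 CPM, and Nov at 3.97 and 128 CPM (6 and 313 UMIs). Cyr61 stood at 383 and 819 CPM, Wisp2 at 351 and 100.4 CPM, and Wisp1 had a log2 ratio of -0.72. The 16 month LMP-like cluster has tendon markers raised, whereas at 3 months tendon-like cells were a cluster of their own, with 994 CPM of Cyr61, 145 of Ctgf, 1520 of Nov and 90.8 of Wisp2. With the 3 month LMP-like and tendon-like cells pooled the log2 ratios were 0.29 for Cyr61, 2.56 for Ctgf, -2.49 for Nov and -1.19 for Wisp2. The direction for Nov thus turned, Cyr61 was no longer 2-fold apart, and Ctgf and Wisp2 still were. In EMP-like cells 4 of 5 members did so, where 38% of 6525 genes did (27.3% higher and 10.7% lower). Ctgf (log2 ratio 2.34), Wisp1 (3.38, interval 1.79 to 5.69, from 3 and 80 UMIs) and Wisp2 (1.11) were higher and Nov (-1.17) was lower at 16 months. Without the top 8% of doublet scores Wisp2 (0.36) and Nov (-0.60) were less than 2-fold apart, and Wisp1 was at 1.38. The doublet calling had not worked at 16 months, so how well these scores find doublets there is not known. The Wisp1 ratio was unstable, at 1.21 with immediate early genes kept in the clustering and 7.43 with neutrophil-like CPM subtracted. In OB-like cells 1 of 3 members did so, where 12.9% of 4381 genes did (8.38% higher and 4.52% lower), and it was Ctgf, at 32.0 and 158 CPM. The ratio is between single libraries and has no replicate check. The 1 and 1.5 month libraries, close in age, also differed for some members. Ctgf in OB-like cells stood at 6.63 and 33.9 CPM there, and Wisp2 in EMP-like cells at 22.4 and 376 CPM. Ctgf in AD-like cells (107 and 148 CPM) and Wisp1 in OB-like cells (327 and 326 CPM) differed less.

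Ctgf stood higher at 16 months than at 1, 1.5 and 3 months in each of the 6 mesenchymal classes found in all libraries. In Ocy-like cells it was at 19.5, 53.4, 58.7 and 501 CPM, and in endothelial-like cells, which line vessels, at 12.9, 74.2, 35.8 and 200 CPM. In neutrophil-like cells it was 2.60, 181, 9.31 and 55.4 CPM, highest in the 38 cells at 1.5 months. Other blood cells held more at 16 months. In erythroid-like cells Ctgf took 34.1% of a family total of 775 CPM, against 11.4% of 39.9 CPM at 3 months. In macrophage-like cells Ctgf took 46.5% of 402 CPM, against 20% of 62.4 CPM at 3 months. Whether free RNA or doublets gave these UMIs was not tested. With the neutrophil-like level subtracted the AD-like log2 ratio was 2.59. That level went from 9.31 to 55.4 CPM between 3 and 16 months, a fold near that of AD-like cells (106 to 639 CPM). Its subtraction could therefore hardly change the ratio, and the part of free RNA was not tested. In EMP-like cells 9 and in LMP-like cells 12 of the 15 immediate early genes were at least 2-fold higher at 16 months, against 4 in AD-like and 8 in OB-like cells. Of all genes, 27.3% in EMP-like, 23.2% in LMP-like, 11.8% in AD-like and 8.38% in OB-like cells were that much higher. Their part in the member ratios was not tested. The median log2 ratio of all genes was 0.27 in EMP-like, 0.17 in LMP-like, 0.12 in AD-like and -0.0046 in OB-like cells.

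**Figure D4:**
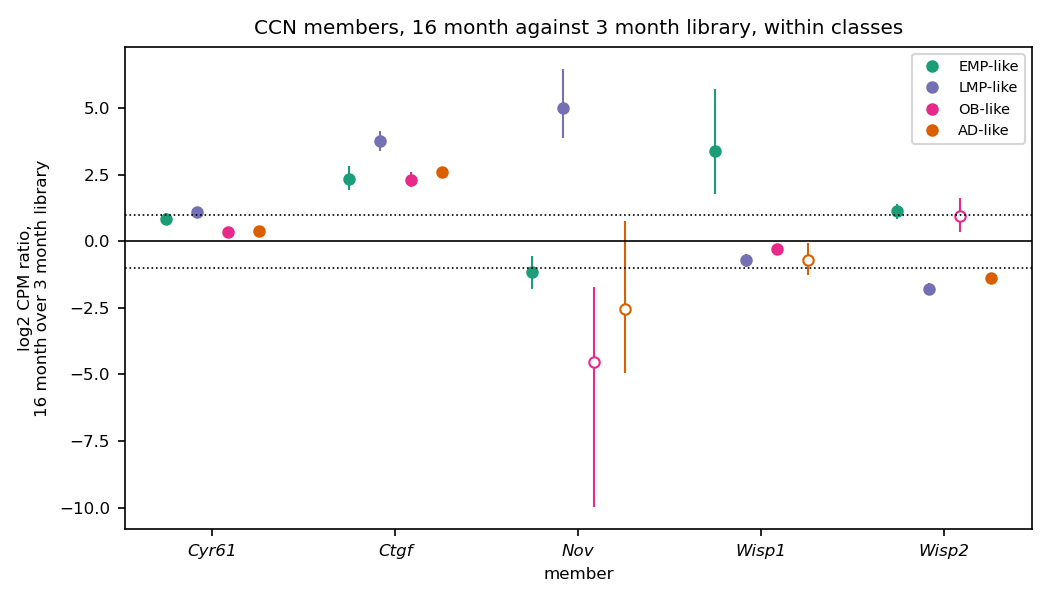
Log2 CPM ratio of the 16 month over the 3 month library for each member in 4 classes, with exact 95% intervals from the UMI counts. Dotted lines mark 2-fold, and open points mark members below 20 CPM in both libraries. The 4 points of Ctgf lie from 2.31 to 3.75, whereas Nov and Wisp2 lie on both sides of 0.

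The pathway's other genes were read from lists in the same 2 libraries. Of 19 further YAP and TEAD target genes, 11 reached 20 CPM in AD-like cells, and 2 were at least 2-fold higher at 16 months, Amotl2 (152 and 380 CPM) and Crim1 (65.0 and 156 CPM), and none lower, where 11.8% of all genes were higher and 4.84% lower. Amotl2 binds and inhibits YAP. The median log2 ratio of the 11 was 0.36. In LMP-like cells 6 of 12 were at least 2-fold higher and none lower, with a median log2 ratio of 1.04, where 23.2% of all genes were higher, and the tendon markers noted above differ between the same clusters. Amotl2 was the 1 of 6 measured targets at least 2-fold higher in OB-like cells, and in EMP-like cells 6 of 12 were higher and 1 lower, where 8.38% and 27.3% of all genes were higher. Of 14 components of the YAP pathway, 10 reached 20 CPM in AD-like cells, none was 2-fold higher, and Tead2 was lower (20.8 and 9.56 CPM). In LMP-like cells Yap1, Wwtr1 and Sav1 were at least 2-fold higher, of 8 measured, where 23.2% of all genes were, with the same limit of tendon markers. In EMP-like cells Yap1 and Tead1 were that much higher, of 9 measured, where 27.3% of all genes were. In OB-like cells 0 of 5 differed 2-fold.

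CCN receptors were found in each mesenchymal class, though in Ocy-like cells only 4 of 14 reached 20 CPM at 1.5 and at 3 months. In AD-like cells 8 of 14 receptors and binding partners reached 20 CPM in each library, led by Itgb1, the beta-1 integrin, at 346, 321, 334 and 567 CPM. Sdc4, a heparan sulphate proteoglycan, was at 201, 279, 263 and 280 CPM and led in CH-like cells. Lrp1 was at 170, 157, 155 and 272 CPM. None of the 8 differed 2-fold between 3 and 16 months in AD-like cells. Of 11 canonical Wnt targets, 3 reached 20 CPM there, and Nkd1 and Lgr5 were higher at 16 months, Lgr5 at 5.46 and 56.6 CPM. Of 7 TGFb, BMP and VEGF ligands, 5 did, and Bmp2 and Vegfa were at least 2-fold higher. Of all genes in AD-like cells 16.7% differed 2-fold, with 11.8% higher and 4.84% lower. In EMP-like cells 4 of 9 receptors and binding partners were at least 2-fold higher and 1 lower, where 27.3% and 10.7% of all genes were. In LMP-like cells 2 of 8 were higher, where 23.2% of all genes were, and in OB-like cells 0 of 7 differed. Of the Wnt targets 2 of 2 were higher in EMP-like and 3 of 3 in LMP-like cells, with Nkd2 and Lgr5 in both. None reached 20 CPM in OB-like cells. Of the ligands 1 of 6 was higher and 2 lower in EMP-like cells. In LMP-like cells 3 of 6 were higher and 1 lower, where 9% of all genes were lower. In OB-like cells 1 of 4 was higher, where 8.38% of all genes were. Vegfa was higher in each of these classes, and Tgfb1 lower in EMP-like and LMP-like cells.

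The genes whose levels over the 52 points were most like each member were compared among 6873 genes that reached 50 CPM. For Cyr61 they were Ryk, Errfi1 and Bgn (r of 0.95, 0.94 and 0.93). For Ctgf they were Ctdspl, Ptch1 and Foxc1 (0.92, 0.90 and 0.89). For Nov they were Fgf18, Mmp3 and Crabp2 (0.92, 0.91 and 0.89). For Wisp1 they were Sp7, Kazald1 and Mlip (0.93, 0.91 and 0.91). For Wisp2 they were Sulf1, Antxr1 and Serping1 (0.93, 0.91 and 0.89). Among the members the closest pair was Cyr61 and Ctgf (0.82), and the least alike were Nov and Wisp1 (0.078). Points share libraries and blood cell classes low in all members, and the values are a description.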

How the data were processed

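The data were 4 tables of genes by cells, 1 for each age. Per the submitters' processing notes and the study's methods, the authors used Cell Ranger 3.0.2 with a modified mm10 reference, and Seurat 2. The methods also name Seurat 3, for the 3 and 16 month libraries on their own and for all ages joined. The deposited values are raw UMI counts, without normalization, and their depth was 32672631 to 108227184 UMIs per library. The members and the lists were chosen with earlier results of these data known.

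A cell needed 200 to 6000 genes, of its UMIs no more than 5% mitochondrial. In Seurat 5.3.0 (R 4.3.3), 2000 variable genes were taken, leaving out the members, the naming markers and the immediate early genes. UMIs per cell and mitochondrial share were regressed out, and 30 components were clustered at a resolution of 0.8. The 1 and 1.5 month libraries were aligned, and mesenchymal cells were clustered again. A cluster was named where at least 3 markers were raised 2-fold. Scrublet (scanpy 1.11.5) called 0.147% of cells at 16 months and so had not worked there. Its calls were not used, and its scores served 1 alternative.

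CPM intervals are exact Poisson and shares exact Clopper-Pearson, at 95% (scipy 1.17.1). They cover counting error only. Log2 ratios carry the exact binomial interval of their counts, and a gene needed 20 CPM in either library. Shares used cells with at least 3000 UMIs, thinned to 3000. The ratio was tried on simulated counts with known folds. These held counting error only, without differences of library, free RNA or clustering, so they do not bear on those limits. Genes named are the members, the 3 most like each, and list genes with the highest CPM or past 2-fold. No test between ages was possible.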

Additional observations from a re-analysis of the deposited data

How the results depend on the processing

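No paired analysis was possible because each age is 1 library. Under the 10 alternatives for clustering, filters and levels, the highest class was as reported in 3 or 4 of the 4 libraries for every member. Wisp1 had the same one in all 4 each time, and Cyr61 differed in 1 library under 8 of the 10. Of the levels at or above 20 CPM, 1 to 8 per setting moved beyond 1.5-fold, but 23 of 114 did with neutrophil-like CPM subtracted, where Cyr61 in LMP-like cells at 1.5 months went from 597 to 0 CPM. Ctgf in EMP-like cells at 3 months went from 89.7 to 31.2 CPM at resolution 0.5, and Wisp2 there from 251 to 157 CPM with no regression. The AD-like log2 ratio of Ctgf (2.58) was 2.36 at resolution 0.5. That of Wisp2 (-1.37) was -1.22 at resolution 0.5, -1.51 with neutrophil-like CPM subtracted, -1.49 when centred on the median of all genes and -1.03 against the mean of the other libraries. That of Cyr61 (0.38) was 0.31 with at least 1000 genes per cell, 0.15 with the subtraction, 0.26 when centred and 0.048 against that mean. That of Wisp1 (-0.69), under 20 CPM in both libraries, was 0.040 without the top 8% of doublet scores and -1.31 against that mean. The cause was not tested. No ratio of Nov could be had with the subtraction. Members 2-fold apart in AD-like cells numbered 2, or 3 at resolution 0.5 and against that mean. OB-like cells at 16 months without their low-depth cluster, an alternative chosen after seeing the data, gave log2 ratios of 0.47 for Cyr61, 2.10 for Ctgf and -0.16 for Wisp1. In LMP-like cells, the 3 month tendon-like cells added, also chosen after seeing the data, turned the log2 ratio of Nov from 5.01 to -2.49. There Cyr61 fell short of 2-fold at resolution 0.5 (0.86), by mean over cells (0.88), without the top doublet scores (0.96) and with the subtraction (0.64), and Wisp2 (-1.81) at resolution 0.5 (-0.67). By mean over cells Wisp1 in OB-like cells was -1.20. Depth limits Nov in AD-like cells, with 2 UMIs at 3 months and 7 at 16 months.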
